A study of Homo sapiens with 6 samples.

Results

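Mitochondrial ribosomal protein genes are nuclear genes whose symbols start with MRPL, for the large subunit, or MRPS, for the small subunit. All rows of the expression table that GENCODE 29 lists as protein-coding and whose symbol starts with either prefix were taken, without regard to their values. This gave 78 genes, 49 MRPL and 29 MRPS, of 65198 gene rows in the table. MDA-MB-231, an established line of basal-like breast adenocarcinoma, was sequenced in 6 libraries of poly(A)-selected RNA. Cells of the shHOTAIR group, 3 libraries, held a hairpin RNA directed at the long non-coding RNA HOTAIR and switched on by tetracyclines. Those of the shCtrl group, also 3 libraries, held an inducible hairpin of scrambled sequence. Doxycycline was given to both groups at 1 µg/ml for 96 h, so each group carried the drug as well as a hairpin. The series' design calls the 3 libraries of a group biological repeats and names 1 derivative of the line for each hairpin, so p-values rest on the spread between repeats within a derivative. Derivative and hairpin cannot be told apart.

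The mitochondrial ribosome translates the mRNAs of the mitochondrial genome, whose 13 protein-coding genes encode core subunits of the respiratory chain and ATP synthase. Its RNAs are transcribed inside the organelle, while its proteins are made in the cytosol and imported, so both genomes supply parts of the particle. Some of the proteins have bacterial counterparts and others are particular to mitochondria, and the names used in the solved structures mark them, with u or b for the former and m for the latter. Doxycycline, a tetracycline antibiotic, is known to inhibit translation on bacterial and mitochondrial ribosomes. No library without doxycycline was among the 6, so nothing here measures the response to the drug.

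HOTAIR itself lay between 0 and 0.0132 FPKM in the 6 libraries (exact two-sided permutation p = 0.4, where 0.1 is the smallest possible), so the labels could not be checked by the target. FPKM counts fragments relative to transcript length and library size. How many fragments each library held is unknown here. From the spacing of low values, 1 fragment was worth, with shCtrl 1 as the unit, 0.812 and 0.839 in the other shCtrl libraries and 0.595 to 0.717 in shHOTAIR, so the shHOTAIR libraries were deeper. Markers of the line were present: VIM was at 361 to 977 and CD44 at 430 to 515 FPKM, and ESR1, PGR and CDH1 did not exceed 0.114 FPKM. VIM was lower in shHOTAIR (361 to 411 FPKM) than in shCtrl (906 to 977 FPKM), while KRT18 and AXL were higher without overlap, and the part of this shift in the results was not tested. Of other cell types, the leukocyte marker PTPRC did not exceed 0.236, the endothelial PECAM1 0.418 and the fibroblast COL1A1 3.82 FPKM, the last without overlap between shHOTAIR (from 3.27) and shCtrl (up to 1.58).

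The test took genes whose mean over the libraries reached 1 FPKM, and all 78 did. Their means ran from 9.50 to 295 FPKM, with a median of 46.5, against 20.6 over 11587 protein-coding genes tested. FPKM is scaled by length, so levels can be set side by side between genes, with a limit where reads may be shared. Of those named next, MRPL51 and MRPL9 share 31.3% and 38.5% of their exonic bases with other annotated genes. Of the 78 genes 34 have pseudogenes named after them. MRPS21 has 8, with means up to 0.14 FPKM, and MRPS31 has 4, with means up to 6.69 FPKM. The highest in the large subunit was MRPL51, at 300, 284 and 324 FPKM in shCtrl 1, 2 and 3 and at 262, 306 and 293 FPKM in shHOTAIR 1, 2 and 3. MRPL9 (mean 259 FPKM) and MRPL42 (247 FPKM) followed, and the spans of their libraries overlapped. In the small subunit MRPS18B (156 FPKM), MRPS27 (148.5 FPKM) and MRPS35 (132 FPKM) were highest, and the libraries of these neighbours in the order also overlapped. The lowest were MRPS21 (9.50 FPKM), MRPS36 (11.2 FPKM) and MRPS31 (13.3 FPKM), with MRPL44 (14.4 FPKM), MRPL41 (15.5 FPKM) and MRPL50 (16.1 FPKM) lowest of the large subunit. Within a group the genes had a median coefficient of variation of 9.33%, against 7.79% over 7908 protein-coding genes whose mean reached 10 FPKM.

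Most genes of the set differed little between the derivatives. Of the 78, 11 fell and 4 rose at an adjusted p of 0.05 in limma, a linear model fitted to log2(FPKM + 1) of all 15934 genes tested. Those 15 are 19.2% of the set, against 23.8% of all genes tested and 28.7% of the protein-coding ones, so the share called was near or below the background. By direction, 5.13% of the set was called higher, against 11.5% of all genes tested and 13.8% of the protein-coding ones. Called lower were 14.1% of the set, 12.4% of all genes tested and 14.9% of the protein-coding ones, so the lower share was near the background. The log2 change lay between -0.5 and 0.5 in 73 of the 78 genes, against 12206 of 15934 genes tested and 9571 of 11587 protein-coding ones. Within the set the full range was -0.86 to 0.49. The median was -0.12, against -0.03 over all genes tested and also over the protein-coding ones, and 58 of 78 changes were below 0 (74.4%, against 53.5% of all genes tested). The 3 libraries of a group did not overlap those of the other in 26 genes, 20 lower and 6 higher (33.3%, against 43% of all genes tested and 49.7% of the protein-coding ones). For comparison, 23.2% of all genes tested and 27% of the protein-coding ones were lower without overlap. No set test was made. The RNA is that of bulk cultures, where fewer cells of a kind and less RNA per cell cannot be told apart.

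The small median shift was no larger than the differences between repeats. The median over the 78 genes of log2(FPKM + 1) relative to the shCtrl mean was -0.02, -0.06 and 0.07 in shCtrl 1, 2 and 3. It was -0.19, -0.10 and -0.03 in shHOTAIR 1, 2 and 3, so the groups overlapped. The genes moved together within groups: shHOTAIR 1 had the lowest value of its group in 52 of the 78 genes and shHOTAIR 3 the highest in 48. Among the controls shCtrl 2 was the lowest in 41 genes and shCtrl 3 the highest in 45. Without shHOTAIR 1 the median change was -0.05, and without shCtrl 3 it was -0.08. With values scaled to the summed FPKM of protein-coding genes it was -0.04, and the split of calls was 6 higher and 7 lower, while over all genes tested it went from 1829 higher and 1968 lower to 2221 higher and 1475 lower.

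The ratio of the mean summed level in shHOTAIR to that in shCtrl was 0.933 for the large and 0.933 for the small subunit. The MRPL genes summed to 3732, 3653 and 3929 FPKM in shCtrl 1, 2 and 3 and to 3318, 3509 and 3733 FPKM in shHOTAIR 1, 2 and 3. Those groups overlapped. The MRPS genes summed to 1633, 1634 and 1721 FPKM in shCtrl and to 1498, 1539 and 1615 FPKM in shHOTAIR, without overlap. The gap was narrow, with 1615 FPKM just below 1633 FPKM. Scaling to the summed FPKM of protein-coding genes divides by factors of 1.006 to 1.038 in shCtrl and 0.9603 to 1.005 in shHOTAIR. It thus brings the MRPS sums of the groups closer, and the lack of overlap cannot be taken to hold under it. As a share of that sum, MRPL and MRPS genes together had a mean of 0.692% in shCtrl and 0.679% in shHOTAIR. The ratio was 0.981, against 0.933 for their summed FPKM, and the groups overlapped in both. The ratio of the MRPL to the MRPS sum was 2.27 ± 0.0280 (SD, n = 3) in shCtrl and 2.27 ± 0.0496 (SD, n = 3) in shHOTAIR. Of the 49 MRPL genes 1 rose and 4 fell (10.2% called, median log2 change -0.11), and of the 29 MRPS genes 3 rose and 7 fell (34.5% called, median -0.14). Over all genes tested 23.8% were called, and over the protein-coding ones 28.7%. The MRPS share was thus near that of protein-coding genes, and the MRPL share was below it. Leaving out 1 library left 2 to 4 MRPL calls and 2 to 8 MRPS calls. The letter in the symbol is not always the place in the particle: in human structures MRPS18A (named mL66) and MRPS30 (mL65) belong to the large subunit, and MRPS36 is no part of the ribosome. Counted by structure, 1 rose and 6 fell of 51 large-subunit genes, and 3 rose and 4 fell of 26 small-subunit genes.

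**Figure D1:**
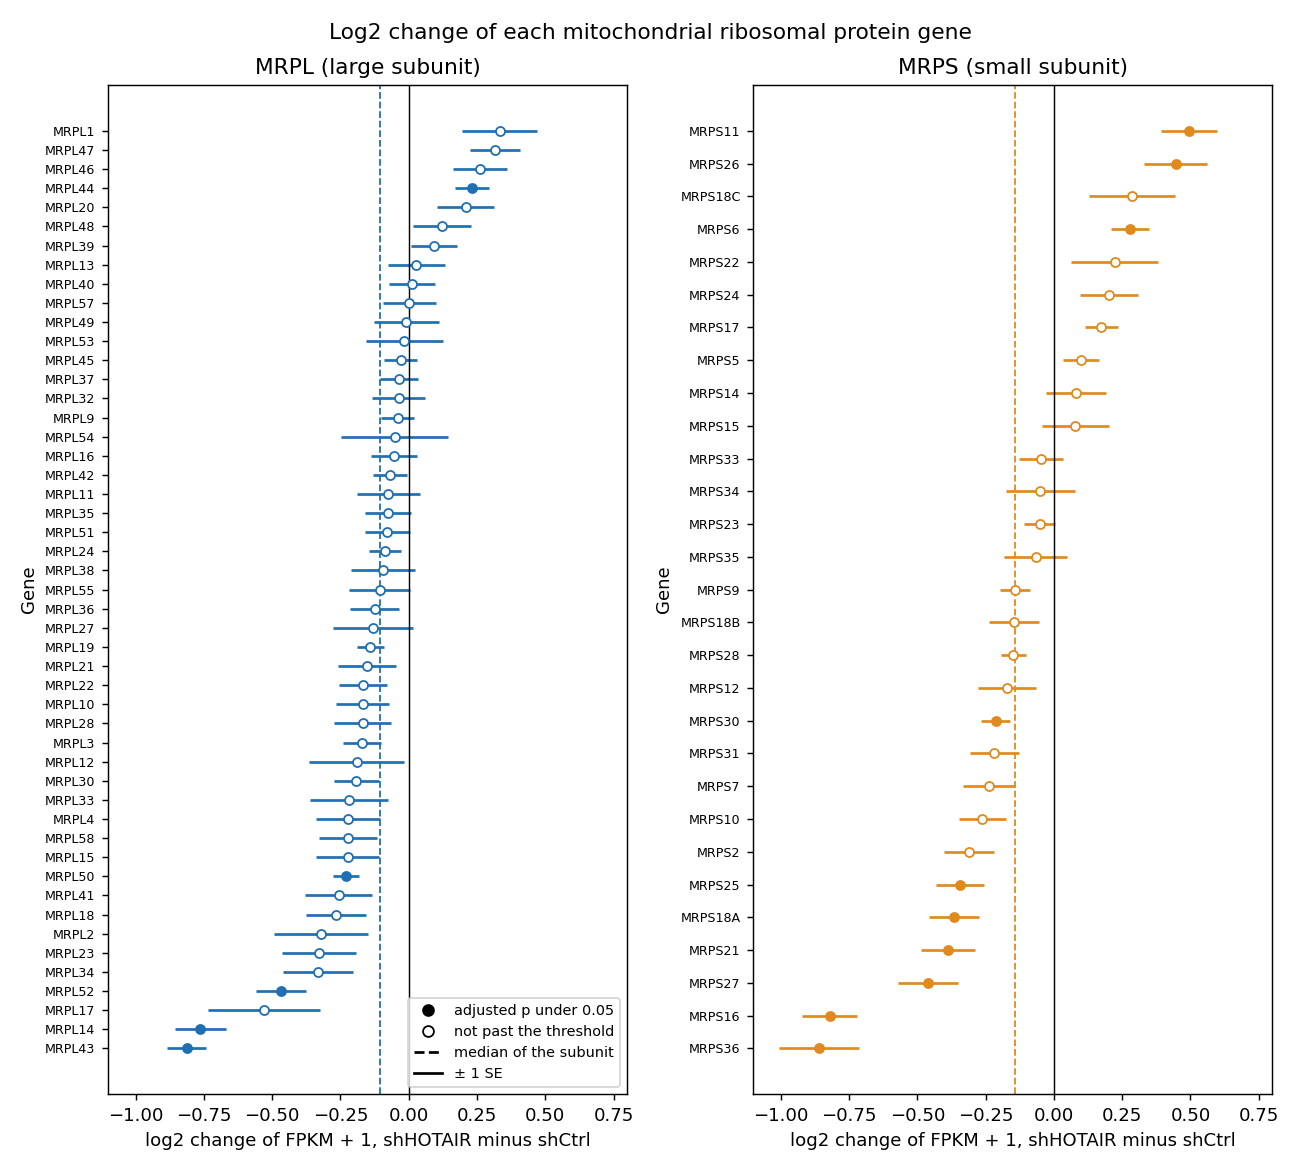
Log2 change of FPKM + 1 (shHOTAIR minus shCtrl, horizontal axis, bars ± 1 SE) of each gene, 49 MRPL on the left and 29 MRPS on the right, with filled points past an adjusted p of 0.05 and the dashed line at the median of the subunit. Most points lie within 0.5 of 0, and 58 of the 78 lie below it.

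Classed by the letter of the structure name, 46 genes count as having a bacterial counterpart and 31 as mitochondrion-specific, with MRPS36 in neither class. By that letter MRPS18A (mL66) and MRPS18B (mS40) count as mitochondrion-specific, although they are paralogs of MRPS18C (bS18m). Of the first class 2 rose and 3 fell (10.9% called, median log2 change -0.15), and of the mitochondrion-specific genes 2 rose and 7 fell (29.03% called, median -0.05). Over all protein-coding genes tested 28.7% were called, so the share of the mitochondrion-specific class was at the background. Without shHOTAIR 1 the difference between these medians went from 0.09 to 0.05.

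The 4 largest falls past the threshold were those of MRPS36, MRPS16, MRPL43 and MRPL14, and these were the calls that held whichever single library was left out. MRPL43 (mL43, on the minus strand of chromosome 10, 100969458 to 100987515, GRCh38) is a mitochondrion-specific protein of the large subunit. It stood at 53.0, 53.2 and 61.4 FPKM in shCtrl 1, 2 and 3 and at 30.7, 31.5 and 31.7 FPKM in shHOTAIR 1, 2 and 3. All 3 shHOTAIR libraries lay far below the lowest control, a fall of 44.0% in the mean (log2 change -0.81, SE 0.0708, limma adjusted p = 0.00168). Exons of MRPL43 share 36.9% of their bases with genes on the other strand, TWNK, the mitochondrial DNA helicase, and SEMA4G. TWNK also fell, from a mean of 55.5 to 33.6 FPKM (log2 change -0.71, limma adjusted p = 0.00114). No source used here says whether strand was used in counting, so reads of MRPL43 and TWNK may be shared.

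MRPS16 (bS16m, chromosome 10, 73248843 to 73252693, minus strand), a small-subunit protein with a bacterial counterpart, has been linked to inherited deficiency of mitochondrial translation. It had 38.2, 44.7 and 44.4 FPKM in shCtrl against 21.7, 26.4 and 22.7 FPKM in shHOTAIR. The groups were well apart (log2 change -0.82, SE 0.10, limma adjusted p = 0.00413). Its exons share 14.9% of their bases with DNAJC9 on the same strand, which fell as well (log2 change -0.53), and with the antisense gene DNAJC9-AS1. MRPL14 (uL14m, chromosome 6, 44113454 to 44127457, minus strand), which lies at the face of the large subunit that meets the small one, was at 42.7, 40.0 and 49.2 FPKM in shCtrl. In shHOTAIR it was at 23.8, 27.1 and 25.4 FPKM, again below every control (log2 change -0.76, SE 0.0938, limma adjusted p = 0.00423). No other annotated gene shares its exons.

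MRPS36 (chromosome 5, 69217760 to 69230129, plus strand) showed the lowest log2 change of the set. Although named for the ribosome, its product is known as an adaptor that holds the dihydrolipoamide dehydrogenase subunit in the 2-oxoglutarate dehydrogenase complex of the citric acid cycle. It had 17.4, 13.97 and 12.7 FPKM in shCtrl against 7.46, 8.84 and 6.60 FPKM in shHOTAIR. The mean was 48.0% lower (log2 change -0.86, SE 0.146, limma adjusted p = 0.0116), and the spread among the controls was wide next to that of the genes above. GENCODE lists 5 pseudogenes named after it, which may take some of its reads, and none of them had a mean over 0.835 FPKM.

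**Figure D2:**
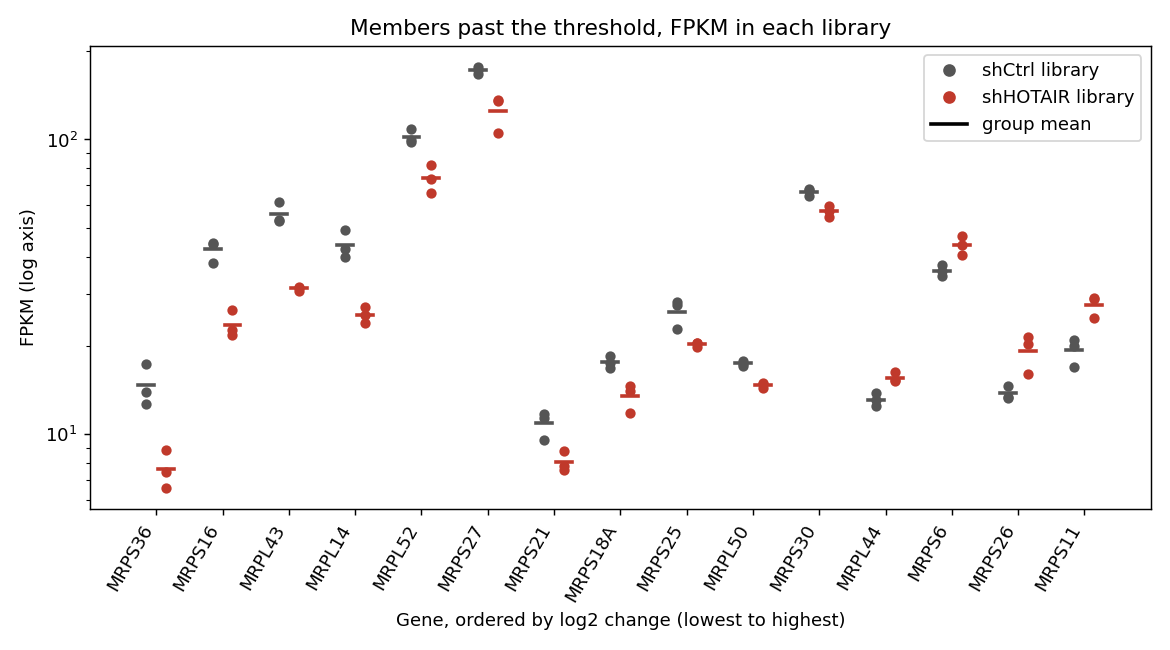
FPKM on a log axis of the 15 genes past the threshold, ordered by log2 change, with 1 point per library (grey shCtrl, red shHOTAIR) and a bar at each group mean. In all 15 the 3 shHOTAIR points lie wholly above or wholly below the 3 shCtrl points, from MRPS36 (mean 14.7 against 7.63 FPKM) to MRPS11 (mean 19.3 against 27.5 FPKM).

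The other 7 falls were smaller. MRPL52 (mL52, chromosome 14) had 99.8, 98.2 and 108 FPKM in shCtrl against 65.9, 82.0 and 73.3 FPKM in shHOTAIR (log2 change -0.47, limma adjusted p = 0.0183). MRPS27 (mS27, chromosome 5), a pentatricopeptide repeat protein, had 166, 173 and 176 FPKM in shCtrl against 136, 105 and 135 FPKM in shHOTAIR (log2 change -0.46, limma adjusted p = 0.0324). For both genes the highest shHOTAIR value stayed below the lowest control. Both lost their calls without shHOTAIR 3 or without any 1 of the shCtrl libraries (adjusted p up to 0.0668 for MRPL52 and up to 0.105 for MRPS27).

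MRPS21 (bS21m, chromosome 1), the gene of the set with the lowest level, had 11.4, 9.60 and 11.7 FPKM in shCtrl against 7.61, 7.84 and 8.82 FPKM in shHOTAIR (log2 change -0.39). MRPS25 (mS25, chromosome 3) was at 27.4, 22.8 and 28.0 FPKM in shCtrl and close to 20 FPKM in each shHOTAIR library, at 20.5, 20.4 and 19.9 (log2 change -0.34). Their limma adjusted p were 0.0389 and 0.0397. Without shCtrl 1, shCtrl 3 or any 1 shHOTAIR library both calls were lost (adjusted p up to 0.127 and 0.122). MRPL50 (mL50, chromosome 9) had little spread, at 17.1, 17.3 and 17.8 FPKM in shCtrl and at 14.8, 14.4 and 14.9 FPKM in shHOTAIR, a fall of 15.5% in the mean (limma adjusted p = 0.0211). The 2 large-subunit proteins with small-subunit symbols fell too. MRPS18A had 18.4, 17.4 and 16.9 FPKM in shCtrl against 11.8, 13.99 and 14.6 FPKM in shHOTAIR (log2 change -0.37, limma adjusted p = 0.03745). MRPS30 had 67.3, 64.1 and 67.8 FPKM in shCtrl against 57.3, 54.7 and 59.5 FPKM in shHOTAIR (log2 change -0.21, limma adjusted p = 0.0379). The calls of MRPL50 and MRPS18A were lost without any 1 library but shHOTAIR 1 (adjusted p up to 0.0736 and 0.121), and that of MRPS30 without any 1 library but shHOTAIR 3 (up to 0.0978).

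The 4 rises were those of MRPS11, MRPS26, MRPS6 and MRPL44. MRPS11 (uS11m, chromosome 15, 88467453 to 88480773, plus strand), of the platform of the small subunit, had 19.9, 16.9 and 21.0 FPKM in shCtrl against 24.9, 28.7 and 28.9 FPKM in shHOTAIR (log2 change 0.49, limma adjusted p = 0.0217). MRPS26 (mS26, chromosome 20) had 13.4, 13.3 and 14.6 FPKM in shCtrl against 16.1, 20.3 and 21.4 FPKM in shHOTAIR (log2 change 0.45, limma adjusted p = 0.0413). In both, shHOTAIR 1 was the lowest of its group and still above every control. MRPS6 (bS6m, chromosome 21) had 35.9, 34.4 and 37.4 FPKM in shCtrl against 40.6, 43.8 and 47.0 FPKM in shHOTAIR (log2 change 0.28, limma adjusted p = 0.0398). Its exons share 9.61% of their bases with other genes of the same strand, one of them SLC5A3, which rose as well (log2 change 0.64). MRPL44 (mL44, chromosome 2), whose product resembles ribonuclease III, had 13.1, 13.9 and 12.5 FPKM in shCtrl against 15.3, 16.3 and 15.2 FPKM in shHOTAIR (log2 change 0.23, limma adjusted p = 0.0473). The MRPL44 call was lost without any 1 library (adjusted p 0.0668 to 0.138). The calls of MRPS26 and MRPS6 were lost without any 1 library but shHOTAIR 1 (up to 0.134 and 0.111), and that of MRPS11 without shCtrl 1, shCtrl 2, shHOTAIR 2 or shHOTAIR 3 (up to 0.0821).

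The 3 human MRPS18 genes, paralogs of 1 bacterial protein, are given together. MRPS18A fell, as given above. MRPS18B (mS40) had 167, 167 and 159 FPKM in shCtrl against 141, 136 and 169 FPKM in shHOTAIR, and the groups overlapped (limma adjusted p = 0.2995). Without shHOTAIR 3, its high library, MRPS18B passed the threshold (log2 change -0.24, adjusted p = 0.0390). MRPS18C (bS18m) had 31.9, 46.6 and 39.4 FPKM in shCtrl against 51.0, 50.7 and 41.5 FPKM in shHOTAIR, also with overlap (limma adjusted p = 0.250). The difference between the paralogs' changes was not tested. Of the 78 genes, 41 share exonic bases with another annotated gene, 14 of them over 20% of theirs, so that reads could be split. MRPS18A shares 47% with RSPH9, which did not reach a mean of 1 FPKM, and MRPS25 shares 22.2% with NR2C2 (log2 change 0.02, limma adjusted p = 0.809), both on the other strand. A further 11 genes had groups that did not overlap and did not pass, among them MRPS2, chosen here after its values were seen, at 52.1, 44.1 and 49.5 FPKM in shCtrl and 35.8, 38.8 and 42.3 FPKM in shHOTAIR (limma adjusted p = 0.0598).

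Many promoters of these genes hold short sequence motifs in common. RefSeq windows from 250 bases before to 50 after the start (GRCh38.p14) were found for 69 of the 78. Exact matches on either strand were counted for CCGGAAG, the core bound by ETS factors such as GABPA, for AAGATGGCG, the core bound by YY1, and for the palindromic core of NRF1. These factors are known regulators of nuclear genes for mitochondria, and the ETS core can end in the letters with which the YY1 core begins. The ETS core was in 29 windows (42% of the 69, against 14.2% of 15842 windows of protein-coding genes and 10.7% of all 27305). The YY1 core was in 13 windows (18.8%, against 2.74% and 1.85%), and 10 of its 14 matches lay after the start (71.4%, near the 68.4% of matches in windows of protein-coding genes). The exact NRF1 palindrome was in 1 window, that of MRPL17 (1.45%, against 1.75% and 1.36%). At least 1 of the 3 was in 8 of the 14 called genes with a window and in 31 of the 55 not called (57.1% and 56.4%). The ETS core was in 6 and 23 of them (42.9% and 41.8%). The YY1 core was in 4 and 9 of them (28.6% and 16.4%), a difference that rests on few genes and was not tested. A match is a description of letters and shows no binding.

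The match nearest to the start in each of those 8 called genes is shown so that the letters can be compared between genes that fell and MRPS26, which rose. Each run is 30 bases, read 5′ to 3′ on the strand of the gene, with the match in capitals. The ETS core of MRPL43 lies on the strand of the gene, and those of MRPS16, MRPL52, MRPS21 and MRPS26 on the other, so that they read as its reverse complement.
MRPL43 (chr10:100987498-100987527, minus strand): gtcgtcccggaaCCGGAAGcctcgaggttt
MRPS16 (chr10:73252622-73252651, minus strand): gcggatcatccgCTTCCGGagtcgaggttt
MRPL52 (chr14:22829870-22829899, plus strand): aggccacgcctaCTTCCGGctaccccggct
MRPS21 (chr1:150293856-150293885, plus strand): gtagtgagaaccCTTCCGGtgggctaggta
MRPS26 (chr20:3046003-3046032, plus strand): ttccccgcgccgCTTCCGGggcacggtggc
MRPL50 (chr9:101398577-101398606, minus strand): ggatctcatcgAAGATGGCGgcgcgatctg
MRPS18A (chr6:43687764-43687793, minus strand): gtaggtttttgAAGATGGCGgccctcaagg
MRPS30 (chr5:44808949-44808978, plus strand): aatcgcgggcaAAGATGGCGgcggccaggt
The matches lie from 37 bases before the start (MRPS26) to 24 bases after it (MRPL50), and the YY1 core of MRPS30 and MRPS18A begins 14 and 10 bases after the start. MRPL52 holds the YY1 core as well, 64 and 98 bases before its start.

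Where the genes lie on the chromosomes went along with how they changed, and whether this is particular to the set was not tested. For each gene the median log2 change of its 50 nearest tested protein-coding genes, members of the set left out, was set beside its own. The neighbours' medians ran from -0.53 to 0.40, and 62 of the 78 genes had the sign of their neighbours, 13 of the 15 called genes among them. The correlation across the 78 genes was 0.741 (Pearson) and 0.570 (Spearman), as a description only, since genes close together share neighbours and all share the 6 libraries. MRPL43 and MRPS16, the only members on chromosome 10, had neighbours at -0.53 and -0.51, and MRPL14 on chromosome 6 at -0.48. All 4 genes that rose had neighbours that were higher: MRPS11 at 0.40, MRPS26 at 0.39, MRPS6 at 0.35 and MRPL44 at 0.29. The 8 members on chromosome 17 all had changes below 0 and none was called (median -0.15, against -0.08 over 681 protein-coding genes there). All 6 on chromosome 6 and all 5 on chromosome 5 also had changes below 0, with 2 and 3 of them called. Over all protein-coding genes tested 28.7% were called. The members' median was -0.29 on chromosome 6, against -0.11 over 619 protein-coding genes there. On chromosome 5 it was -0.21, further below 0 than the -0.06 over 525 protein-coding genes there.

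With the neighbours' change subtracted in each library, 7 of the 78 genes passed, all lower, against 2397 of 15361 genes that could be centred. Of these 7, 6 were among the 15 calls: MRPL43 (log2 change -0.28, limma adjusted p = 0.0413), MRPS36 (-0.77, 0.0270), MRPL52 (-0.40, 0.0422), MRPL50 (-0.27, 0.0221), MRPS27 (-0.38, 0.0480) and MRPS21 (-0.41, 0.0403). The other was MRPL3 (-0.27, 0.0335), chosen here after its values were seen. None of the 4 rises passed (adjusted p 0.558 for MRPS6 to 0.740 for MRPS26), and MRPS6 and MRPL44 turned to -0.07 and -0.06. MRPS16 (-0.31, 0.0937), MRPL14 (-0.28, 0.0718), MRPS25 (-0.31, 0.0711) and MRPS30 (-0.14, 0.154) kept their direction without passing, while MRPS18A, whose neighbours were at -0.49, turned to 0.13 (0.350). The genes farthest above their neighbours were MRPL48 (own change 0.12, neighbours -0.24), MRPS22 (0.22 and -0.02) and MRPS5 (0.10 and -0.13), none of which passed.

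**Figure D3:**
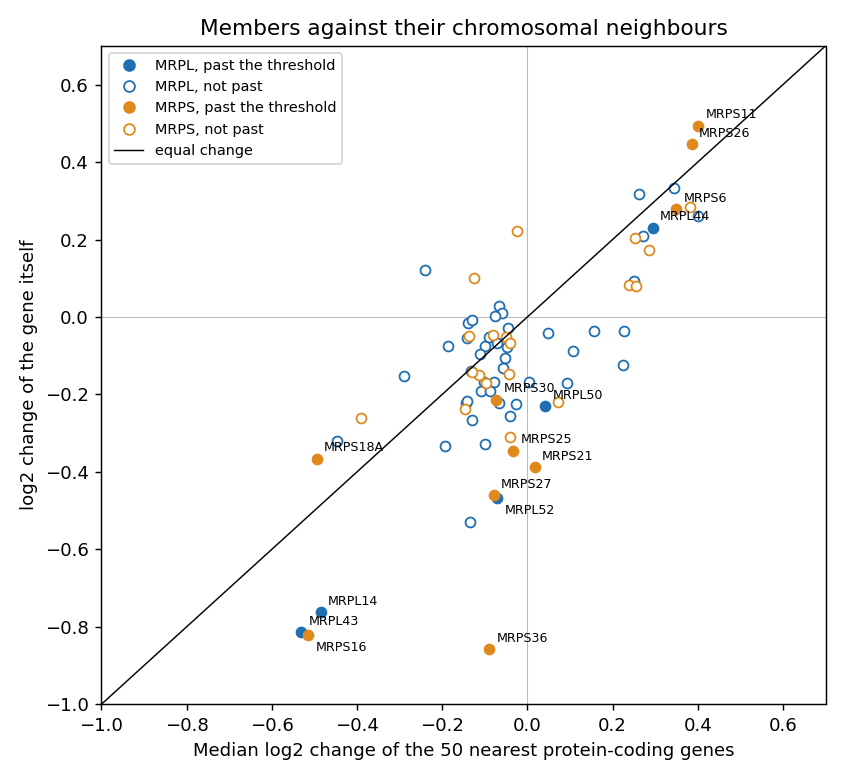
Log2 change of each of the 78 genes (vertical axis) against the median log2 change of its 50 nearest protein-coding genes (horizontal axis), MRPL in blue and MRPS in orange, filled where past the threshold, with a line of equal change. The 4 genes that rose lie near the line at neighbour values of 0.29 to 0.40, and MRPS36 (-0.86) lies far below its neighbours (-0.09).

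Pairs of genes that start back to back were also compared, because many genes for mitochondrial proteins share a promoter region with a neighbour. A gene on the other strand started within 1000 bases upstream of 21 members. In 16 such pairs both genes were tested, and in 11 the log2 changes had the same sign. Pairs outside the set were not counted. MRPS11 and MRPL46, a small-subunit and a large-subunit gene on chromosome 15, are such a pair. MRPL46 (mL46) had 22.3, 21.7 and 24.6 FPKM in shCtrl against 24.4, 27.9 and 30.7 FPKM in shHOTAIR, so that shHOTAIR 1 lay among the controls, and it did not pass (log2 change 0.26, limma adjusted p = 0.120). MRPS11 also shares 9.17% of its exonic bases with AC013489.3 on the other strand, which rose (log2 change 0.44). The 33 bases between the annotated exons of the pair are shown on the MRPL46 strand as the sequence that both genes flank, and they hold none of the 3 motifs.
MRPL46 and MRPS11 (chr15:88467420-88467452, minus strand): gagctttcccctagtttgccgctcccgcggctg
The following pairs were chosen after their values were seen. The pair of MRPL36 and NDUFS6, a subunit of respiratory complex I, went apart: MRPL36 had a log2 change of -0.12 and did not pass (limma adjusted p = 0.375), and NDUFS6 rose by 0.59 (0.0444). MRPL47 and NDUFB5, another complex I subunit, had changes of 0.32 and 0.35, and neither passed (limma adjusted p of 0.0598 and 0.0678).

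Other genes of mitochondrial translation were counted from lists written from general knowledge. As background, 23.8% of all genes tested and 28.7% of the protein-coding ones were called. Of 5 further ribosomal proteins with other names, CHCHD1 fell, from 47.0 ± 0.490 to 33.8 ± 4.38 FPKM (SD, n = 3; limma adjusted p = 0.0195). It lies on chromosome 10 like MRPL43 and MRPS16, and with its neighbours' change subtracted its log2 change went from -0.47 to -0.02 (adjusted p = 0.933). Without any 1 library but shHOTAIR 1 its call was lost (up to 0.0712). DAP3, the GTP-binding protein of the small subunit, also chosen after its values were seen, was at 299 ± 5.46 and 289 ± 2.17 FPKM (SD, n = 3) and did not pass (limma adjusted p = 0.464). Of the 28 genes for assembly and RNA modification 3 rose and 1 fell (14.3% called, median log2 change -0.10). NGRN, needed for the stability of the large ribosomal RNA, rose from 47.5 ± 2.80 to 72.6 ± 4.03 FPKM, MTERF4, which works with the methyltransferase NSUN4, from 7.86 ± 0.885 to 12.9 ± 0.485 FPKM, and the other, outside the rule for named genes, was FASTKD2 (log2 change 0.33). RBFA, a factor for maturation of the small subunit, fell from 9.37 ± 0.388 to 6.24 ± 0.319 FPKM. With neighbours subtracted none of these 4 passed (adjusted p 0.0721 to 0.222).

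Of 16 translation factors 2 fell and 0 rose (median -0.18), and 15 of the 16 changes were below 0 (93.8%, against 53.5% of all genes tested). In 8 of the 16 the groups did not overlap, all of them lower (50%, against 23.2% of all genes tested). The 2 that fell were peptide release factors, MTRF1 (log2 change -0.56, limma adjusted p = 0.0205) and MTRF1L (-0.26, 0.0279). MTRF1 kept its call with neighbours subtracted (-0.72, 0.0104) and lost it without any 1 shCtrl library or without shHOTAIR 2 (up to 0.0797). MTRF1L lost it in both respects (0.356 with neighbours subtracted, and up to 0.0849 without any 1 library but shCtrl 2). Among 20 genes for mitochondrial aminoacyl-tRNA synthesis CARS2 rose (log2 change 0.67) and AARS2 fell (-0.31), with a list median of 0.00. With neighbours subtracted these turned to -0.10 and 0.12 and did not pass (adjusted p = 0.556 and 0.323), and AARS2 lost its call without any 1 library (up to 0.0806). Of 5 genes for mitochondrial transcription TFB2M (log2 change -0.28, limma adjusted p = 0.0121) and TFAM (-0.27, 0.0473), a packaging factor of mitochondrial DNA on chromosome 10, fell. Neither passed with neighbours subtracted (0.0547 and 0.160), where the change of TFAM was 0.20, and TFAM lost its call without any 1 library but shCtrl 1 (up to 0.128). The share called was 12.5% of the translation factors, 10% of the aminoacyl-tRNA list and 40% of the 5 transcription genes. Over all genes tested it was 23.8%, and over the protein-coding ones 28.7%.

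The RNAs that the ribosome contains and translates were variable. The 12S ribosomal RNA, MT-RNR1, was listed at 873, 644 and 601 FPKM in shCtrl and at 1096, 425 and 521 FPKM in shHOTAIR, with shHOTAIR 1 above every control and the others below. The 16S ribosomal RNA, MT-RNR2, had 2509, 2148 and 1935 FPKM in shCtrl against 1950, 1234 and 1266 FPKM in shHOTAIR (limma adjusted p = 0.0970). Poly(A) selection takes up ribosomal RNA only in part, so these levels are no measure of ribosome number. The 13 mitochondrial mRNA genes all had log2 changes below 0 (median -0.42), and with limma 0 of them passed, 7 having an unadjusted p under 0.05. The count was 7 with the replicate number as a block, 3 without shHOTAIR 1, 2 where genes had to reach a mean of 5 FPKM, and 1 under robust eBayes. Their sum was 65670, 49880 and 50410 FPKM in shCtrl and 48980, 37480 and 34770 FPKM in shHOTAIR, and the highest shHOTAIR library lay just below the lowest control. In the list of mitochondrial chaperones, proteases and ATF4 targets, 0 of 20 tested rose and 5 fell (25% called). Of all genes tested 23.8% were called and 12.4% called lower, and of the protein-coding ones 28.7% and 14.9%. The falls were led by the ATF4 targets CHAC1 (5.95 ± 0.187 to 1.99 ± 0.379 FPKM) and DDIT3 (62.3 ± 7.69 to 32.0 ± 3.24 FPKM; SD, n = 3). Both calls held with neighbours subtracted and without any 1 library. Outside the rule for named genes, ASNS fell as well (log2 change -0.80). ATF4 itself (0.007), ATF5 (-0.02), TRIB3 (-0.05), PSAT1 (-0.06), SHMT2 (0.01) and PHGDH (0.25) did not pass.

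The cytosolic ribosomal proteins and the nuclear genes of the respiratory chain were set beside the mitochondrial ribosomal proteins, whose median log2 change was -0.12. Of 84 tested cytosolic ribosomal protein genes 3 rose and 15 fell (21.4% called, median log2 change -0.31), and of 79 tested nuclear respiratory chain genes 7 rose and 8 fell (19.0% called, median -0.15). Over all genes tested 23.8% were called, and over the protein-coding ones 28.7%, so both shares in either direction were near or below the background. By direction the cytosolic set was uneven, with 76 of 84 changes below 0 (90.5%, against 53.5% of all genes tested). Called lower were 17.9% of it, against 12.4% of all genes tested and 14.9% of the protein-coding ones. Called higher were 3.57%, against 11.5% and 13.8%. Of the respiratory chain genes 72.2% had changes below 0. The cytosolic set summed to 75580, 68750 and 78770 FPKM in shCtrl and to 53790, 60560 and 68300 FPKM in shHOTAIR. The groups did not overlap, but the gap between 68300 and 68750 FPKM was narrow. Its lowest library was shHOTAIR 1, as it was for both subunits of the mitochondrial ribosome. The genes with the smallest p in each direction are named. In the cytosolic set these were RPL17 (log2 change -0.94) and RPS24 (-0.77), which fell, and RPL24 (0.58) and RPL39 (0.43), which rose. In the respiratory chain set they were ATP5F1C (-0.79) and ATP5MD (-0.93), both of ATP synthase and both on chromosome 10, which fell, and NDUFB3 (0.35) and NDUFA10 (0.44) of complex I, which rose. With neighbours subtracted RPL17 and ATP5MD alone of these 8 passed (limma adjusted p = 0.0160 and 0.0161), and RPL39 turned to -0.21 (0.143). The 4 falls kept their calls whichever library was left out, and each of the 4 rises lost its call without shCtrl 2 and without shHOTAIR 2. RPL24 and NDUFA10 lost it also without shCtrl 1, RPL39 also without shCtrl 1, shHOTAIR 1 or shHOTAIR 3, NDUFB3 also without shCtrl 3 or shHOTAIR 3, and NDUFA10 also without shCtrl 3. The cytosolic count was 5 (without shHOTAIR 2) to 20 and the respiratory chain count 3 (without shCtrl 3) to 13 when 1 library was left out. The difference between these sets and the mitochondrial ribosomal proteins was not tested.

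**Figure D4:**
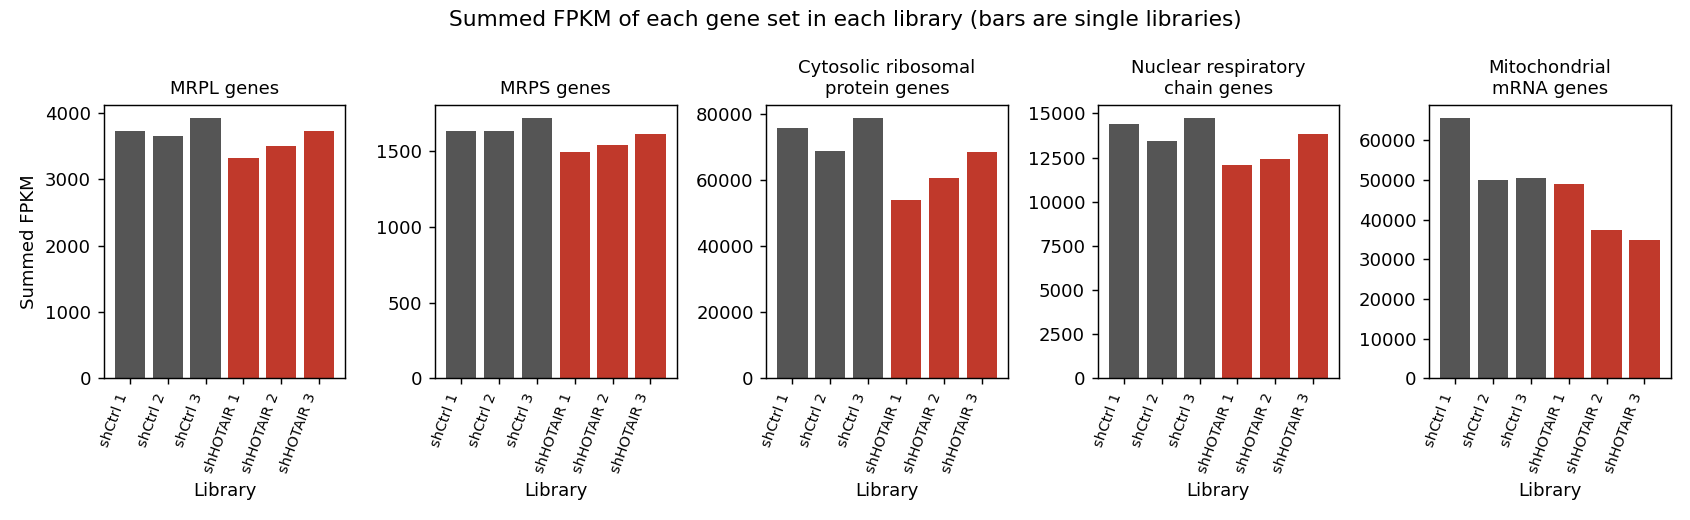
Summed FPKM (vertical axes, each from 0) in each of the 6 libraries for MRPL genes, MRPS genes, cytosolic ribosomal protein genes, nuclear respiratory chain genes and mitochondrial mRNA genes, 1 bar per library. The MRPL sums of the groups overlap (3318 to 3733 against 3653 to 3929 FPKM). Those of the cytosolic set do not, by a narrow gap, with shHOTAIR 3 at 68300 and shCtrl 2 at 68750 FPKM.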

How the data were processed

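Poly(A)-selected RNA of 3 shCtrl and 3 shHOTAIR libraries was measured. The authors deposited FPKM values, 1 column per library; GRCh38, DESeq and TopHat2 2.0.13 are listed without roles, per the submitters' processing notes, and no source used here states the annotation or the strand setting. Depth is known only as relative depth, from the commonest ratio of values between 0.001 and 0.1 FPKM. Of 65198 rows 56807 matched GENCODE 29 by Ensembl identifier. Groups and replicates came from the sample titles.

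Values were analysed as log2(FPKM + 1), which understates changes of low genes. Genes whose mean reached 1 FPKM were tested with limma 3.58.1 in R 4.3.3 (intensity trend, no replicate block, Benjamini-Hochberg adjustment over all genes tested, threshold 0.05), and the code was tested on simulated data. SE is that of the log2 change. The 50 neighbours were 25 on each side where possible. Subunit and homology classes and related lists were written from general knowledge. The genes named were those past the threshold, the 3 highest and lowest levels in each subunit, the MRPS18 genes, the 3 farthest from their neighbours each way and the 2 smallest p in each direction of each related list. The members and lists were chosen with earlier results of these data known. Alternatives were other pseudocounts, filters, scalings and limma settings, a replicate block, subtraction of neighbours and each library left out. Protein sequences were not analysed here. Python 3.11.15 with pandas 2.3.3, scipy 1.17.1 and matplotlib 3.10.9 was used.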

Additional observations from a re-analysis of the deposited data

How the results depend on the processing

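The precision of each value rests on 3 libraries against 3, of unknown depth. Of all genes tested, 3797 passed with the settings reported; 2397 passed with regional centring (the neighbours' change subtracted), 1740 with the replicate block and 2470 to 3159 with 1 library left out. For the 78 genes (15) the count was 7 without a filter on low values, 7 with regional centring, 4 with the replicate block and 5 to 12 with 1 library left out. For MRPL genes (5) it was 2 with the block and 2 to 4 in the leave-outs. For MRPS genes (10) it was 6 in limma without a trend, 3 without a filter, 3 with regional centring, 2 with the block and 2 to 8 in the leave-outs. For the related lists together (49) it was 29 without a filter, 16 with regional centring, 25 with the block and 19 to 44 in the leave-outs.

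The median of MRPL minus that of MRPS genes (0.04) was 0.008046 with quantile normalization, -0.004291 with regional centring and -0.0252 to 0.0664 in the leave-outs, and mitochondrion-specific minus bacterial counterpart (0.09) was 0.0502 to 0.0871 in the leave-outs. With regional centring MRPS6 (-0.0714), MRPL44 (-0.0632), MRPS18A (0.13), CARS2 (-0.10), AARS2 (0.12), TFAM (0.20) and RPL39 (-0.21) reversed; the cause was not tested. Deviations of same-numbered libraries correlated at -0.141, -0.069 and -0.0506 over protein-coding genes, and those of differently numbered libraries at -0.155 to 0.187. These values cannot decide whether replicate numbers pair the samples, since deviations were taken from the mean of each small group. The block left calls in 7 mitochondrial mRNA genes where there had been 0. Of 780 comparisons of a named gene with an alternative, 612 stayed on the same side of the threshold, 160 lost the call, 1 gained it and 7 reversed. The planned comparison of protein sequences was not run.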
